A study of Homo sapiens with 6 samples.

Results

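The entry hsa-miR-4451 was the largest single value in exosomal small-RNA libraries of HCT116, a human line established from a colorectal carcinoma. It was picked from the measured values themselves, as the entry with the highest mean of 2^value − 1 over all 6 libraries, where value is the deposited log2 value. It is 1 of 2588 mature miRNA entries, of which 686 had at least 1 read. Its high level is therefore a description here and carries no test.

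The libraries came from cells given an siRNA against PRDX3, a mitochondrial peroxidase (siPRDX3, 3 libraries), or a control siRNA (siCTL, 3 libraries). In both groups the siRNA was introduced by microporation for 40 h, the cells were then held for 24 h in medium with nanoparticle-free serum, and the exosomes released were collected with an isolation kit. The series' design text closes with a sentence that names endothelial cells and another siRNA; the titles were followed. Whether the 3 libraries of each group stem from different cultures is not stated, and the p-values below therefore reflect variation among libraries that could be technical. PRDX3 mRNA is not among the measured entries, so the knockdown itself could not be checked.

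A mature miRNA is a short RNA cut from a hairpin precursor by the nucleases Drosha and Dicer and loaded onto an Argonaute protein. Bases near its 5′ end, the seed, pair with target mRNAs. Exosomes are small vesicles released by cells, and their RNA holds miRNAs beside fragments of tRNA, rRNA and other noncoding RNAs. Every share in a sequencing library depends on all others, because the shares sum to the whole: a single large entry lowers the share of every other entry.

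The sequences below show how short miR-4451 is, where it sits in its hairpin and which annotated miRNAs come closest to it. They are RefSeq sequences on GRCh38.p14, read 5′ to 3′. Capitals mark the seed (bases 2 to 8) in miR-4451 and let-7b-5p, the mature miRNA in the hairpin MIR4451, and the stretch shared with miR-4451 in the other 3 miRNAs.
miR-4451: uGGUAGAGcugaggaca
MIR4451 hairpin: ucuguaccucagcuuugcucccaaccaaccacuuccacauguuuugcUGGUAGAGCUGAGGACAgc
miR-4303: uucuGAGCUGAGGACAg
miR-4478: gaggcuGAGCUGAGGAg
miR-6787-5p: uggcgggGGUAGAGCUGgcugc
let-7b-5p: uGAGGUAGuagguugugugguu

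The mature miR-4451 is 17 nt long and lies on the plus strand at chr4:85722515-85722531, bases 48 to 64 of a 66 nt hairpin at chr4:85722468-85722533. In GENCODE v29 the hairpin lies in an intron of 4 transcripts of ARHGAP24, a gene on the same strand, 496 bases from the nearest exon. Among the 606 entries with reads whose sequence was in the RefSeq table, the median length was 22 nt, and 16 (2.64%) were 17 nt or shorter. The GC content of miR-4451, 52.9%, lay near the median of 54.5% over those entries.

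No other annotated miRNA among the 2281 matched entries had the same bases 2 to 8. A shared run of 10 or more bases was found in 3 others. The longest, 12 bases, was in miR-4303, which had 2, 1 and 0 reads in siPRDX3 1, 2 and 3 and no reads in any siCTL library. The other 2, miR-4478 and miR-6787-5p, shared 10 bases and had 0 reads in all 6 libraries. The median longest run over the other entries was 4 bases. Among 206694 GENCODE transcripts the exact 17-base sequence occurred in MIR4451 and in no other gene, and with 1 mismatch in transcripts of 3 genes (AK8, MAVS and ZNF846). An exact match in some other gene was found for 4 of 51 entries of 17 nt (7.84%). Nuclear tRNA genes and intron sequence were not among the transcripts searched, and matches with more than 1 mismatch were not sought. Whether the reads of miR-4451 come from MIR4451 alone was therefore not tested.

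The libraries differed in depth and in likeness before any comparison. Reads assigned to miRNA entries, recovered from the deposited values, totalled 230946, 96660 and 70678 in siPRDX3 1, 2 and 3, and 40146, 80950 and 124735 in siCTL 1, 2 and 3. With miR-4451 left out, siCTL 1 and siCTL 2 stood apart from the rest. Over log2 CPM of the tested entries their correlations with siCTL 3 were 0.16 and 0.27, and 0.58 with each other, whereas siCTL 3 had correlations of 0.54 to 0.76 with the siPRDX3 libraries. Results are therefore also given without siCTL 1 and siCTL 2, a choice made after seeing the data. It keeps the control library most like the siPRDX3 libraries, which by itself favours smaller differences between the groups. Values without siCTL 1 and siCTL 2 therefore show dependence on these libraries and cannot decide whether the groups differ.

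miR-4451 held 11.8%, 47.7% and 40.0% of the miRNA reads in siPRDX3 1, 2 and 3, and 49.4%, 76.9% and 16.4% in siCTL 1, 2 and 3. These are 27317, 46119 and 28236 reads in the siPRDX3 libraries and 19837, 62237 and 20432 reads in the siCTL libraries. The groups overlapped on both scales, and the lowest shares came from 1 library of each group. The exact 95% Clopper-Pearson intervals were narrow, for example 11.7% to 12.0% in siPRDX3 1 and 76.6% to 77.2% in siCTL 2. They cover counting error only, because amplified copies of a molecule are counted as separate reads.

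The most abundant other entry was let-7b-5p in 5 libraries and miR-122-5p in siPRDX3 2. let-7b-5p belongs to the let-7 family, which represses growth-promoting mRNAs such as those of RAS genes. miR-122-5p is the main miRNA of liver. miR-4451 had 0.88, 4.95 and 5.13 times the reads of the next entry in siPRDX3 1, 2 and 3, against 5.52, 17.2 and 1.51 times in siCTL 1, 2 and 3. It ranked first in 5 libraries. In siPRDX3 1 it was second, behind let-7b-5p with 31184 reads. The third place was held by let-7a-5p, its close relative, with 19050 reads in that library.

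**Figure D1:**
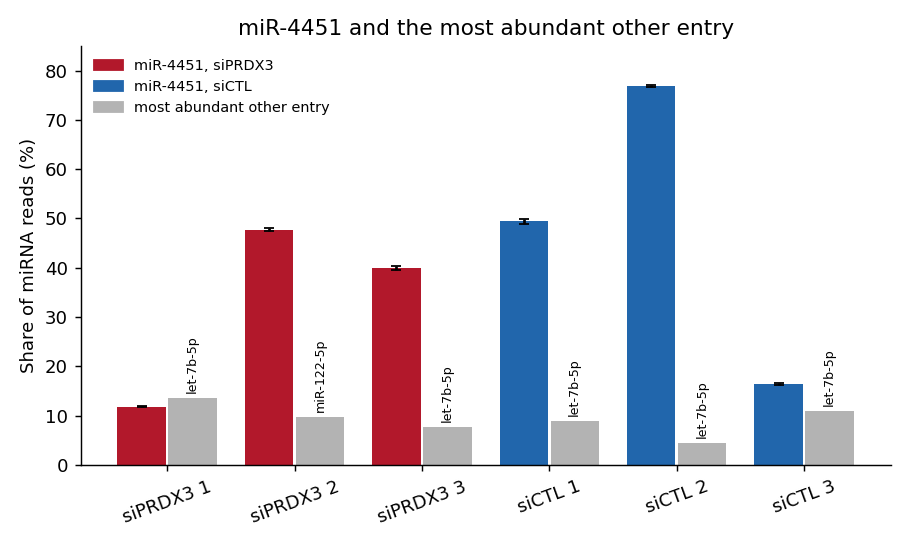
Share of miRNA reads in percent (y axis) for miR-4451 (coloured bars, with 95% Clopper-Pearson intervals) and for the most abundant other entry (grey bars, named above each bar) in each library (x axis). miR-4451 is the higher bar in every library other than siPRDX3 1, and its share runs from 11.8% in siPRDX3 1 to 76.9% in siCTL 2.

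The gap can also be counted in entries. In siPRDX3 1, 2 and 3 the next 1, 23 and 13 entries together reached the reads of miR-4451. In siCTL 1 it took 23 entries, in siCTL 3 it took 2, and in siCTL 2 all other entries together fell short, with 18713 reads. By mean of 2^value − 1 over the 6 libraries, miR-4451 stood at 416663, against 74535 for let-7b-5p, 42213 for let-7a-5p and 33292 for miR-122-5p. Its mean was 5.59 times that of let-7b-5p and 1.37 times that of the next 10 entries together. The tenth of these, miR-1290, stood at 17807, so the mean of miR-4451 was 23.4 times as large. On this scale miR-4451 made up 45.8% of the sum of all entries. These means and ratios lean on siCTL 2, where miR-4451 stood at 1242659. In the other libraries it stood at 81244 to 496694. The sum over all entries was also largest in siCTL 2, at 1616283.

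The reads of miR-4451 varied less between libraries than the reads of everything else. Its highest and lowest read numbers differed 3.14-fold, between siCTL 2 and siCTL 1. The other entries together had 203629, 50541 and 42442 reads in siPRDX3 1, 2 and 3, and 20309, 18713 and 104303 reads in siCTL 1, 2 and 3, a 10.9-fold range. In log2 units the SD over the 6 libraries was 0.66 for miR-4451 and 1.34 for the sum of the others. The libraries with the smallest shares of miR-4451, siPRDX3 1 and siCTL 3, were those with the most other reads, while their reads of miR-4451 lay within the range of the remaining libraries.

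The same held set against single entries. Of the 41 other tested entries with reads in every library, 39 had a larger SD of log2 reads than miR-4451, and their median SD was 2.02. The median fold between their highest and lowest libraries was 51.4. The 2 with a smaller SD were miR-486-5p, a miRNA of red blood cells (SD 0.55), and miR-326 (SD 0.41). miR-486-5p had 1740, 1885 and 1040 reads in the siPRDX3 libraries and 1750, 2262 and 3307 reads in the siCTL libraries, a 3.18-fold range. miR-326 had 13 to 26 reads per library. Across the 6 libraries the log2 reads of miR-4451 and of all other entries had a correlation of −0.35, a description over 6 points that share each library's sequencing depth.

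**Figure D2:**
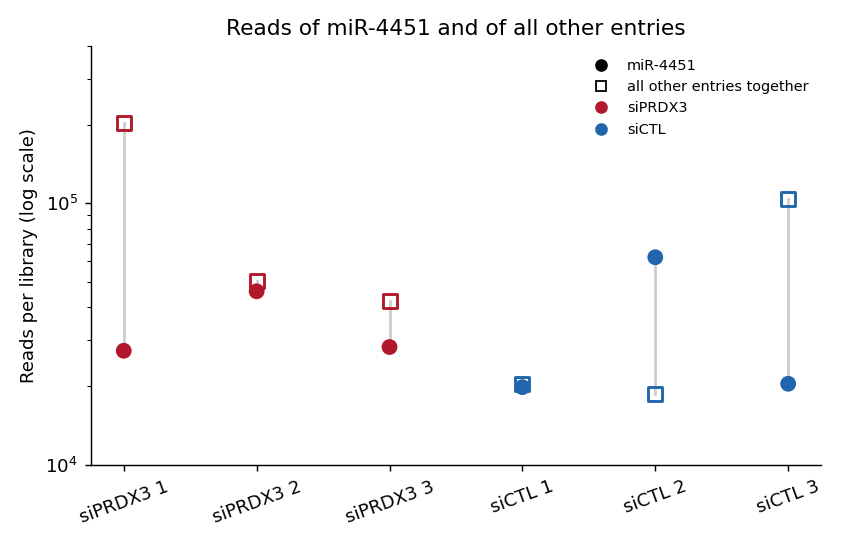
Reads of miR-4451 (filled circles) and of all other entries together (open squares) in each library, on a log10 y axis, with a grey line joining the pair of each library. The circles lie between 19837 reads in siCTL 1 and 62237 in siCTL 2, whereas the squares run from 18713 reads in siCTL 2 to 203629 in siPRDX3 1.

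Between the groups, no measure of miR-4451 passed its test. Its share was 33.2% ± 18.9 in siPRDX3 and 47.6% ± 30.3 in siCTL (SD, n = 3 each), a difference of −14.4 percentage points (two-sided exact permutation test, p = 0.4, Benjamini-Hochberg adjusted p = 0.8 over 4 measures). The log2 odds, meaning log2 of miR-4451 reads over all other reads, were −2.90, −0.13 and −0.59 in siPRDX3 1, 2 and 3, and −0.03, 1.73 and −2.35 in siCTL 1, 2 and 3. Their group means of −1.21 ± 1.48 in siPRDX3 and −0.22 ± 2.05 in siCTL (SD, n = 3 each) differed by −0.99 (exact permutation test, p = 0.4, adjusted p = 0.8). With 3 libraries a group this test cannot give a p below 0.1.

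The deposited log2 values of miR-4451 were 16.31, 18.32 and 17.53 in siPRDX3 1, 2 and 3, and 18.92, 20.25 and 17.31 in siCTL 1, 2 and 3. In limma over all 80 tested entries its log2 fold change, siPRDX3 over siCTL, was −1.44 (SE 0.83, adjusted p = 0.504). No entry passed the adjusted threshold of 0.05 in that fit (0% of 80), and 6 had an unadjusted p under 0.05. The difference was close to the SD over the 6 libraries, 1.38. The size depended on the scaling. Scaled to library totals the log2 fold change was −0.49, to totals without miR-4451 −0.99, and by upper-quartile factors −2.18. Without siCTL 2 alone the difference in share was 0.27 percentage points and the log2 fold change was −0.73. Leaving out siCTL 3 alone went the other way, with differences of −29.98 percentage points in share and −2.06 in log2 odds. The log2 fold change was then −2.20, which did not pass the adjusted threshold of 0.05 in limma. Without siCTL 1 and siCTL 2 the log2 fold change was 0.07 (limma adjusted p = 0.954), the difference in share was 16.8 percentage points and the difference in log2 odds was 1.15, each higher in siPRDX3. With siCTL 3 alone as control, that library is assumed in the fit to vary like the others. In reads, the means were 33890 ± 10600 in siPRDX3 and 34170 ± 24310 in siCTL (SD, n = 3 each).

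Libraries in which miR-4451 took a larger share tended to have fewer entries with reads, though not in strict order. siCTL 2, with the largest share, had more entries than siCTL 1. Entries above 0 numbered 334, 215 and 272 in siPRDX3 1, 2 and 3, and 137, 190 and 356 in siCTL 1, 2 and 3. Entries with at least 10 reads numbered 150, 71 and 106 in siPRDX3 1, 2 and 3, and 36, 54 and 120 in siCTL 1, 2 and 3. The most entries were seen in siCTL 3 and siPRDX3 1, where the share of miR-4451 was lowest. The fewest were seen in siCTL 1, which also had the smallest total.

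Over the 6 libraries the share of miR-4451 and the number of entries above 0 had Pearson's r of −0.83 (exact permutation of pairings, p = 0.0472, adjusted p = 0.142) and Spearman's rho of −0.89 (exact permutation, p = 0.0333, adjusted p = 0.1). Neither passed the adjustment over the family of 3 relations. Without the 2 libraries farthest from the median share, siCTL 2 and siPRDX3 1, r was −0.92 over 4 libraries. The share and the total reads had r of −0.70 (exact permutation p = 0.115, adjusted p = 0.173) and rho of −0.71 (exact permutation p = 0.136, adjusted p = 0.204). Without siCTL 2 and siPRDX3 1 that r was −0.78.

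Bringing every library to the same number of other reads altered this relation. Expected numbers of other entries in 18713 reads drawn from the reads without miR-4451 were 176, 146 and 210 in siPRDX3 1, 2 and 3, and 131, 189 and 198 in siCTL 1, 2 and 3. siCTL 2, with the largest share of miR-4451, then lay among the libraries with more entries. The share and these expected numbers had r of −0.18 (exact permutation p = 0.714) and rho of −0.31 (exact permutation p = 0.564), and without siCTL 2 and siPRDX3 1 r was −0.68. Group means of the expected numbers were 177 ± 31.8 in siPRDX3 and 172 ± 36.4 in siCTL (SD, n = 3 each), for which the exact permutation test gave p = 0.9, with 0.9 after adjustment. For entries above 0 they were 274 ± 59.5 in siPRDX3 and 228 ± 114 in siCTL (SD, n = 3 each), with an exact permutation p of 0.6, or 0.8 after adjustment.

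**Figure D3:**
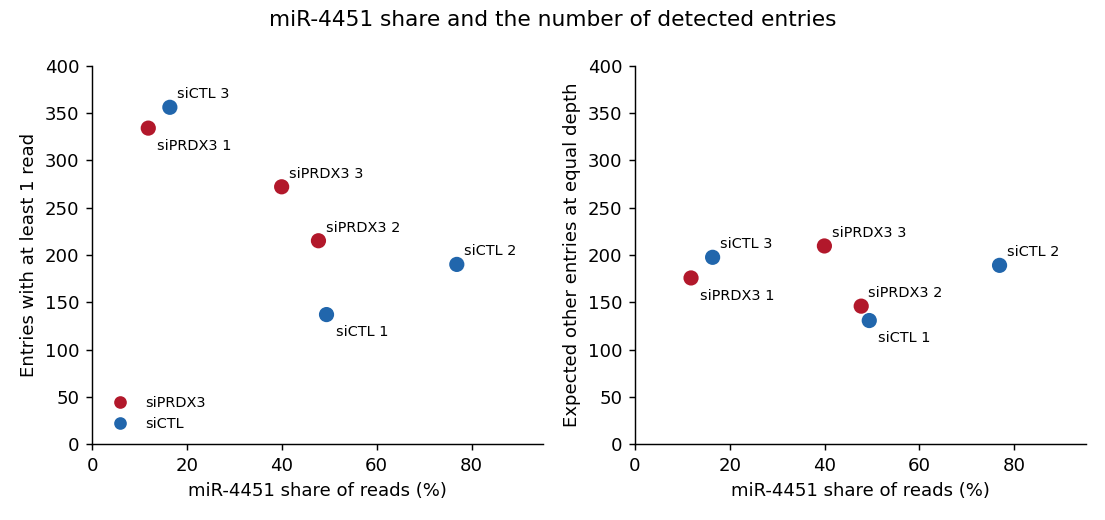
Share of miR-4451 in percent (x axes) against the number of entries with at least 1 read (left, y axis) and against the number of other entries expected at 18713 other reads (right, y axis), 1 point per library, siPRDX3 in red and siCTL in blue. On the left the points run from 356 entries at a share of 16.4% (siCTL 3) down to 137 at 49.4% (siCTL 1). The largest share, 76.9% in siCTL 2, goes with 190 entries. On the right the points lie between 131 and 210.

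Leaving miR-4451 out of the library sum multiplied the share of every other entry by 1.13, 1.91 and 1.67 in siPRDX3 1, 2 and 3, and by 1.98, 4.33 and 1.20 in siCTL 1, 2 and 3. The factor is the same for all other entries of a library, and siCTL 2 stood apart with the largest. Whether an entry then varied more or less between libraries depended on the entry.

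let-7b-5p, the next entry, became more even. It had 13.5%, 6.87% and 7.78% of all reads in siPRDX3 1, 2 and 3, and 8.95%, 4.48% and 10.9% in siCTL 1, 2 and 3, a 3.01-fold range. Of the reads without miR-4451 it had 15.3%, 13.1% and 13.0% in the siPRDX3 libraries, and 17.7%, 19.4% and 13.0% in the siCTL libraries, a 1.496-fold range. siCTL 2 moved from the lowest share of let-7b-5p to the highest. The coefficient of variation over the 6 libraries was 36.1% with miR-4451 in the sum and 18.0% without it.

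let-7a-5p had 8.25%, 2.78% and 4.57% of all reads in siPRDX3 1, 2 and 3, and 5.95%, 2.27% and 5.97% in siCTL 1, 2 and 3. Without miR-4451 its shares were 9.36%, 5.32% and 7.61% in the siPRDX3 libraries and 11.7%, 9.81% and 7.15% in the siCTL libraries, and the coefficient of variation was 26.7%, against 45.0% with miR-4451. Summed over the 9 listed let-7 members, the share without miR-4451 was 30.9%, 25.9% and 28.7% in siPRDX3 1, 2 and 3, and 31.1%, 39.5% and 25.9% in siCTL 1, 2 and 3. In the sum with miR-4451 it had been 27.2%, 13.5% and 17.3% in the siPRDX3 libraries and 15.7%, 9.12% and 21.7% in the siCTL libraries. Members of the family differ by few bases, so reads may be divided uncertainly among them. The family's coefficient of variation was 16.5% without miR-4451 and 36.4% with it.

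miR-486-5p did the opposite. It had 0.75%, 1.95% and 1.47% of all reads in siPRDX3 1, 2 and 3, and 4.36%, 2.79% and 2.65% in siCTL 1, 2 and 3, so the groups did not overlap. Of the reads without miR-4451 it had 0.85%, 3.73% and 2.45% in the siPRDX3 libraries and 8.62%, 12.1% and 3.17% in the siCTL libraries. The groups then overlapped, with siPRDX3 2 above siCTL 3, and the coefficient of variation was 83.2%, against 53.6% with miR-4451 in the sum. Summed over the 5 listed miRNAs of red blood cells, of which 4 had reads, the share without miR-4451 was 1.23%, 6.76% and 3.43% in siPRDX3 1, 2 and 3, and 11.03%, 20.7% and 4.96% in siCTL 1, 2 and 3. With miR-4451 it had been 1.09%, 3.54% and 2.06% in the siPRDX3 libraries and 5.58%, 4.79% and 4.15% in the siCTL libraries.

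miR-122-5p was spread widely on both scales. Its coefficient of variation was 89.2% without miR-4451 and 75.9% with it, while its highest and lowest shares differed 71.8-fold without and 162.5-fold with it. Without miR-4451 it had 2.77%, 18.4% and 5.59% of reads in siPRDX3 1, 2 and 3, and 9.23%, 0.26% and 6.40% in siCTL 1, 2 and 3. Its highest and lowest shares fell in libraries with the same replicate number, siPRDX3 2 and siCTL 2. Of the other entries among the next 10, miR-423-5p had a coefficient of variation of 52.0% without miR-4451 and 74.9% with it, and miR-3184-3p had 52.3% without and 74.5% with it. For let-7f-5p these were 44.2% without and 52.3% with it, and for miR-7704 76.0% without and 93.5% with it. miR-10a-5p stayed near its value, at 61.0% without miR-4451 and 63.0% with it, and miR-1290 had 98.2% without and 93.4% with it. miR-423-5p and miR-3184-3p lie on opposite strands of one hairpin locus, so the reads of this pair may not be separate.

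Over the 41 other tested entries with reads in every library, the coefficient of variation was lower without miR-4451 for 23 and higher for 18. The median was 86.6% without miR-4451 and 80.9% with it. Fewer reads in the denominator thus came with a narrower spread for some entries and a wider one for others.

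**Figure D4:**
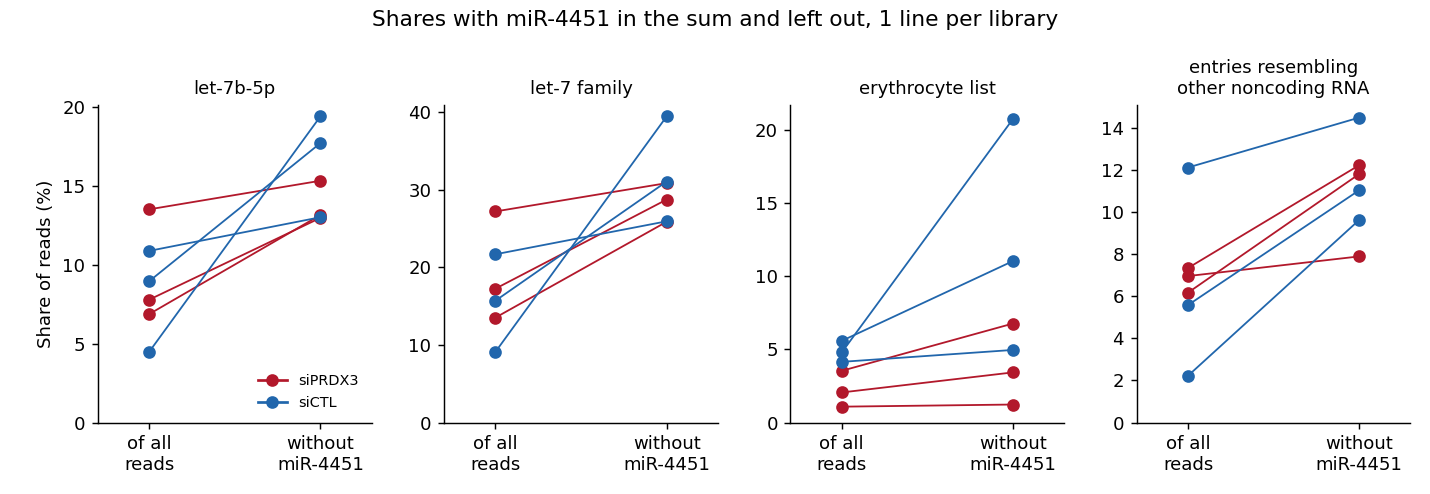
Share of reads in percent (y axes, a scale of its own in each panel) for let-7b-5p, the let-7 family, the red blood cell miRNAs and the entries that resemble other noncoding RNAs, of all reads (left points) and of reads without miR-4451 (right points), 1 line per library, siPRDX3 in red and siCTL in blue. The steepest line of each panel belongs to siCTL 2, where the factor is 4.33, and the 6 points of the let-7 family span a 2.98-fold range on the left and a 1.52-fold range on the right.

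Markers of other sources were counted beside these shares. Of 8 epithelial miRNAs listed as markers of the cells themselves, 7 had reads, and they summed to 0.34%, 0.02% and 0.48% of the reads without miR-4451 in siPRDX3 1, 2 and 3, and to 0.01%, 0.02% and 1.39% in siCTL 1, 2 and 3. Only 1 of them passed the filter on low values. These markers were near 0 in siPRDX3 2, siCTL 1 and siCTL 2, the libraries with the largest shares of miR-4451. Of 6 platelet and leukocyte miRNAs 3 had reads, none enough to be tested. In bulk exosomal RNA, fewer vesicles or cells of a type and less RNA in each cannot be told apart. The part of red blood cell, liver or serum RNA in these values was not tested.

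Entries that resemble fragments of other noncoding RNAs, 20 by list and 16 with reads, summed to 7.89%, 11.8% and 12.2% of reads without miR-4451 in siPRDX3 1, 2 and 3, and to 11.03%, 9.62% and 14.5% in siCTL 1, 2 and 3. With miR-4451 in the sum they had been 6.96%, 6.17% and 7.34% in the siPRDX3 libraries and 5.58%, 2.22% and 12.1% in the siCTL libraries. Their coefficient of variation was 20.3% without miR-4451 and 47.6% with it, so their summed share, like that of the let-7 family, was more even once miR-4451 was set aside.

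By annotated length, miR-4451 made a separate peak. Entries of 17 nt held 12.7%, 48.2% and 40.3% of all reads in siPRDX3 1, 2 and 3, and 52.5%, 76.9% and 16.8% in siCTL 1, 2 and 3. miR-4451 made up 93.5%, 99.1% and 99.1% of these in the siPRDX3 libraries and 94.2%, 99.96% and 97.4% in the siCTL libraries. Other entries of 17 nt held 0.94%, 0.86% and 0.60% of the reads without miR-4451 in siPRDX3 1, 2 and 3, and 6.07%, 0.13% and 0.52% in siCTL 1, 2 and 3. The high value in siCTL 1 came mainly from miR-4443, with 1216 reads there, against 1008, 6 and 2 reads in siPRDX3 1, 2 and 3 and 11 and 31 reads in siCTL 2 and 3.

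The usual miRNA length gave a more similar share in every library once miR-4451 was left out. Entries of 22 nt held 46.8%, 29.7% and 32.9% of all reads in siPRDX3 1, 2 and 3, and 26.0%, 12.0% and 37.6% in siCTL 1, 2 and 3. Of the reads without miR-4451 they held 53.1%, 56.9% and 54.8% in the siPRDX3 libraries and 51.4%, 51.8% and 45.0% in the siCTL libraries. Entries of 23 nt held 18.8%, 15.3% and 17.5% in the siPRDX3 libraries and 7.27%, 9.98% and 19.9% in the siCTL libraries on that scale. Entries with no sequence in the table, which have no length here, held 9.96%, 13.1% and 9.03% in the siPRDX3 libraries and 22.2%, 21.9% and 13.1% in the siCTL libraries. These are lengths of the annotated miRNA, since the deposited tables give no read lengths.

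**Figure D5:**
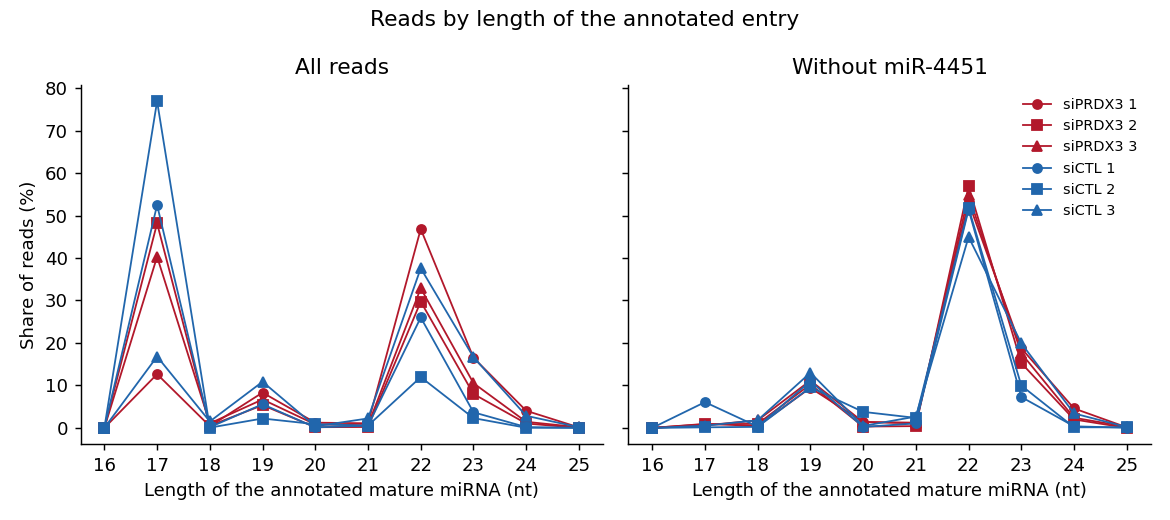
Share of reads in percent (y axis) by annotated length of the entry in nt (x axes), of all reads (left) and of reads without miR-4451 (right), 1 line per library, siPRDX3 in red and siCTL in blue, with a marker shape for each replicate number. On the left a peak at 17 nt runs from 12.7% in siPRDX3 1 to 76.9% in siCTL 2, and on the right the highest point is at 22 nt in all 6 libraries, between 45.0% in siCTL 3 and 56.9% in siPRDX3 2.

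The comparison of siPRDX3 with siCTL across the other miRNAs shifted with the denominator, while no call was made on either scale. With miR-4451 left out of the sum, 0 of 79 tested entries passed an adjusted p of 0.05 in limma (0%), and 8 had an unadjusted p under 0.05, 7 of them higher in siPRDX3. With miR-4451 in the sum, 0 of 79 passed (0%), and 7 had an unadjusted p under 0.05, 6 of them higher. In limma-voom 1 entry passed on each scale, which with miR-4451 left out was miR-1260b. The count depended on siCTL 3: without that library 19 entries passed in limma with miR-4451 left out and 22 with it in the sum. The 19 included miR-1260b, miR-1260a and miR-197-3p. These had passed the filter on low values in siPRDX3 libraries alone, so their calls support nothing. The 1 entry of the 19 that was lower in siPRDX3 was miR-4695-3p (log2 fold change −7.29, limma adjusted p = 0.039). It did not pass with all 6 libraries (limma adjusted p = 0.283). The group means of the log2 factor were 0.62 in siPRDX3 and 1.12 in siCTL, so leaving out miR-4451 lowers a log2 fold change by 0.50, apart from what the added pseudocount of 1 does to low values. For the 41 entries with reads in every library the shift lay between −0.51 and −0.46. Of the 79 entries, 36 were at 0 in at least 1 siCTL library and 10 in at least 1 siPRDX3 library, so many fold changes depend on the pseudocount, and entries could enter the test through 1 group alone. The median log2 fold change of the 79 entries was 2.20 without miR-4451 and 2.63 with it. Without siCTL 1 and siCTL 2 the median of the fit without miR-4451 was −0.10.

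The shift turned the sign of 7 entries, none of which passed the test on either scale. let-7b-5p had a log2 fold change of −0.26 without miR-4451 (SE 0.30, limma adjusted p = 0.625) and 0.24 with it (SE 0.49, limma adjusted p = 0.775). let-7a-5p had −0.37 without and 0.13 with it. The other 5 were miR-21-5p, miR-25-5p, let-7i-5p and miR-3960, which like the let-7 pair went below 0 when miR-4451 was left out, and miR-10b-5p, which went above 0. miR-10b-5p was at 0 in 1 library, where leaving out miR-4451 cannot raise its share.

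Groups of shares did not overlap for 10 entries higher in siPRDX3 (12.7% of those tested) and 2 entries lower (2.53%), both with miR-4451 and without it. The same 10 entries were higher on both scales. However, 5 tested entries had passed the filter on low values in siPRDX3 libraries alone. With miR-4451 in the sum their groups could not overlap, so the counts of 10 and 2 are no result about direction. Of the lower ones, miR-4695-3p was in both counts, with 10, 3 and 11 reads in siPRDX3 1, 2 and 3, against 1202, 66 and 259 reads in siCTL 1, 2 and 3. miR-486-5p was in the count with miR-4451 only, and miR-486-3p in the count without it only.

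Among entries higher in siPRDX3, the lowest p-values of the fit without miR-4451 belonged to miR-1260b, with a log2 fold change of 10.4 (SE 2.27, limma adjusted p = 0.174), miR-1260a with 9.65 (limma adjusted p = 0.214) and miR-197-3p with 8.42 (limma adjusted p = 0.283). miR-1260b had 777, 330 and 204 reads in siPRDX3 1, 2 and 3, against 0, 0 and 5 reads in siCTL 1, 2 and 3. miR-1260a had 121, 341 and 217 reads in the siPRDX3 libraries, against 0, 0 and 4 reads in the siCTL libraries. All 3 were among the 5 entries that passed the filter on low values in siPRDX3 libraries alone, so they had to differ between the groups to be tested, and their p-values support nothing. These folds depend on the pseudocount and are no bounds, and reads may be split between the near-identical miR-1260a and miR-1260b. Lower in siPRDX3 were miR-4695-3p at −6.44 (limma adjusted p = 0.283), miR-486-5p at −1.80 (SE 0.82, limma adjusted p = 0.332) and miR-6815-5p at −4.66 (limma adjusted p = 0.48). With miR-4451 in the sum miR-486-5p was at −1.30 (limma adjusted p = 0.434). Without siPRDX3 1, miR-486-5p was at −1.19 and miR-6815-5p at −2.60. Without siCTL 1 and siCTL 2, miR-486-5p was at −0.68, miR-6815-5p at −1.48, miR-4695-3p at −4.75, miR-1260b at 6.66, miR-1260a at 6.12 and miR-197-3p at 3.93.

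By list, with miR-4451 left out, none of the tested members passed the test. Over all 79 tested entries 54 were above and 25 below 0 (68.4% above), with a median log2 fold change of 2.20. The 8 tested let-7 members split into 4 above and 4 below 0, with a median of 0.44. The 3 tested red blood cell miRNAs were all below 0, with a median of −1.68. They include miR-486-5p and miR-486-3p, which can come from the same hairpin, so they may not be separate members. Of the 10 tested entries that resemble other noncoding RNAs, 8 were above and 2 below 0, with a median of 3.04. Those above 0 include miR-1260a and miR-1260b, which passed the filter in siPRDX3 libraries alone, so their direction supports nothing. The single tested liver miRNA, miR-122-5p, was at 1.41 and the single tested epithelial one at 4.90. The summed share of the epithelial list went the other way, at 0.28% ± 0.23 in siPRDX3 and 0.47% ± 0.79 in siCTL (SD). It was highest in siCTL 3, at 1.39%.

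Likeness to miR-4451 was measured as Pearson's r over the 6 libraries between the log2 odds of miR-4451 and the log2 CPM of an entry without miR-4451. Both measures divide by the same other reads, so an entry whose reads stay level resembles miR-4451 by construction, and no p is given. The most alike were miR-4667-5p (r = 0.93), miR-25-5p (0.93), miR-6794-3p (0.92), miR-326 (0.90) and miR-486-5p (0.86). The first 3 were sparse. miR-4667-5p had 1, 3 and 8 reads in siPRDX3 1, 2 and 3 and 5, 15 and 3 reads in siCTL 1, 2 and 3, and miR-25-5p and miR-6794-3p had 5 to 40 reads per library.

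The least alike were miR-182-5p (r = −0.89), miR-151a-3p (−0.89), let-7g-5p (−0.87), miR-28-3p (−0.86) and miR-744-5p (−0.84). miR-182-5p, a miRNA frequently raised in carcinoma cells, had 2822, 77 and 196 reads in siPRDX3 1, 2 and 3, against 2, 1 and 1727 reads in siCTL 1, 2 and 3. miR-151a-3p had 4044, 482 and 790 reads in the siPRDX3 libraries, against 174, 126 and 2176 reads in the siCTL libraries. Both were highest in siPRDX3 1 and siCTL 3, the libraries with the smallest shares of miR-4451. Over the 79 entries r was positive for 26 and negative for 53, with a median of −0.41.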

How the data were processed

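The authors deposited 1 table per library with log2 values of 2588 mature miRNA entries. Bowtie2 and bedtools 2.25.0 are listed in the submitters' processing notes without a role. Not given in the sources used here are the build, the miRNA annotation, the scaling and the treatment of multiply mapped reads. Deposited log2 values equal log2(x + 1), where x lies on whole multiples of 1 step per library, the worth of 1 read (2.97, 7.09 and 6.72 in siPRDX3 1, 2 and 3; 25.0, 20.0 and 7.98 in siCTL 1, 2 and 3). Of values up to 100 reads, 100% were whole within 0.1 read; reads of miR-4451 are known within 6.88 to 21.6 reads. The summed x differed between libraries (474714 to 1616283), so the values are not plain CPM.

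From these, read numbers, shares and log2(CPM + 1) were computed, CPM being relative to all miRNA reads or to those without miR-4451. Entries were tested where at least 3 libraries reached 113 CPM (10 reads in a library of median size), with at least 15 reads in all: 80 entries, 79 without miR-4451. Tests were limma 3.58.1 with a mean-variance trend in R 4.3.3, two-sided, Benjamini-Hochberg adjusted over all tested entries at 0.05, and exact permutations (Python 3.11.15). Scripts were tested on simulated data. Those varied less between libraries than the real data, so they do not show how the fits behave here. Where no read was seen, 3 reads of a library's total set the upper limit of a share, 0.0013% to 0.00747%. Equal replicate numbers are not stated to pair libraries.

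Entries named are miR-4451, the 10 next by mean, the top 3 of each library, the 5 most and 5 least alike miR-4451, the lowest p-values in each direction, marker list members and entries with a shared seed or stretch; entries that changed sign or separation were named after their values were seen. The members and lists were chosen with earlier results of these data known. Alternatives covered scaling, filter, pseudocount, a block for replicate numbers, limma-voom and leaving out libraries.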

Additional observations from a re-analysis of the deposited data

How the results depend on the processing

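Of 190 alternative values, 168 kept their sign and side of the threshold or, with no test, their count or their place within a set spread. This is a weak check. The exact tests of share and log2 odds cannot give a p below 0.1, so they could not cross 0.05. The spread set for the median log2 fold change of the other miRNAs was 2.862, the median residual SD of single entries. Within that spread the median changed sign: it was −0.101 without siCTL 1 and siCTL 2, against 2.20 with all libraries. With siCTL 1 and siCTL 2 left out together, a choice made after seeing the data, the log2 fold change of miR-4451 was 0.073, its share difference 16.8 percentage points, its log2 odds difference 1.15, and the log2 fold changes of let-7b-5p and let-7a-5p were 0.083 and 0.018, all reversed. With miR-4451 in the sum let-7b-5p was at 0.243 and let-7a-5p at 0.127. Leaving out 1 library at a time, the share difference ran from −29.98 to 0.268 (0.268 without siCTL 2), the log2 odds difference from −2.06 to −0.013, the log2 fold change of miR-4451 from −2.20 to −0.73 (−2.18 to −0.49 across scalings), and the r between share and entries above 0 from −0.947 to −0.762. At equal depth that r was −0.184. The number of entries called without miR-4451 was 1 in limma-voom (miR-1260b, adjusted p = 0.0444) and 0 to 19 leaving out 1 library, the 19 without siCTL 3 (18 higher in siPRDX3). Because miR-1260b passed the filter in siPRDX3 libraries alone, its call supports nothing. With miR-4451 in the sum the number called was 1 in limma-voom and 0 to 22, the 22 again without siCTL 3. The cause was not tested. With the replicate block 0 entries were called on either scale. The log2 fold change of miR-4451 (−1.44) and the log2 odds difference (−0.99) cannot change under this block, because both groups hold the same numbers. The limma p of miR-4451 was 0.0222 with the block (adjusted p = 0.427), against 0.124 without it (adjusted p = 0.504). Deviations of same-numbered libraries had correlations of −0.24, 0.17 and 0.17, and siPRDX3 1 was most alike siCTL 3 (0.32). With 3 libraries a group these values cannot decide whether libraries of equal number were prepared together. Precision for rare entries is limited by the 18713 other reads of siCTL 2.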
